A study of Mus musculus with 6 samples.

Results

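Muscle cells turn glucose, glycogen and creatine phosphate into ATP with enzymes that often come as a muscle isoform and as isoforms used by other tissues. Described here are 37 such genes: glucose transporters, the enzymes of glycolysis, lactate dehydrogenases, the kinases that switch off pyruvate dehydrogenase, the enzymes that build and break down glycogen, and the creatine kinases. They were chosen by name, and a gene was read by the probe set with the highest mean over all arrays among those paired with that gene alone. In this way 35 of the 37 genes were measured, out of 18194 genes on the array, and Gpi1 and Eno1 were not analysed here. The series held 6 arrays of mouse C2C12 cells, a myoblast line that fuses into myotubes when serum is withdrawn. Parental cells were taken in growth medium with 10% fetal bovine serum, just after the confluent culture was changed to medium with 2% horse serum (day 0), and at day 2 and day 4 in that medium. The other 2 arrays came from stable transfectants at day 0, carrying a hairpin against Rp58 (shRp58) or a control that the labels call both a LacZ vector and a control hairpin. Selection of both lines had lasted 2 weeks, with G418 at 500 µg/ml, and whether each was a pool or a clone is not given in the sources used here. Rp58, now named Zbtb18, is a zinc finger repressor, and its own probe set read 11.69 in the control line and 11.16 in the shRp58 line, a difference of -0.53 log2 units and short of 2-fold (1.44-fold).

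Each group was 1 array, so there was no replicate check, no difference has an error and none was tested. Values are log2 units, differences are between single arrays, and the 4 time-course differences share arrays with one another. A gene at least 2-fold (1 log2 unit) apart between 2 arrays is said to be called. Of the 35 measured genes, 30 reached 7.95, the median of all values, on at least 1 array and were kept for counting, and 5 did not (Phkg1, Fbp2, Ckmt2, Pygl and Ckmt1). Shares of all 13242 kept genes are given as background. The deposited values of the stable lines lay on another scale, with a median of 7.15 over all probe sets against 8.27 on the time-course arrays. Levels were therefore compared within the time course or within the pair of stable lines, save where quantile normalization of all arrays together is named. As the RNA came from whole cultures, fewer cells of a kind and less RNA per cell cannot be told apart.

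In glycolysis, glucose enters the cell through Slc2a1 or, in muscle and fat under insulin, Slc2a4. It is phosphorylated by a hexokinase and committed by phosphofructokinase, and the pathway ends in pyruvate and lactate. In muscle, glycogen phosphorylase releases glucose units from stored glycogen on contraction, after activation by phosphorylase kinase. Creatine kinase passes phosphate between creatine and ATP, and the muscle form is a classical marker of the differentiated fibre. The switch from ubiquitous to muscle isoforms during myoblast differentiation is a long-known feature of these families.

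Across the time course the muscle isoforms were highest at day 4, and most of their counterparts were highest earlier. All 9 kept muscle isoforms (Slc2a4, Hk2, Pfkm, Pgam2, Eno3, Pygm, Gys1, Phka1 and Ckm) had their highest value at day 4, under every scaling and choice of probe set tried. Of the 9 kept counterparts, 7 were highest at day 0 and 2, Ckb and Ldhb, at day 2. After quantile normalization 3 of those 7 were instead highest in growth medium, and after loess 1 was. From day 0 to day 4 the muscle isoforms had a median difference of 1.07 with 5 of 9 called higher, and the counterparts a median of -1.03 with 5 of 9 called lower, against 3.83% and 5.66% of all kept genes. After loess the counterparts called lower were 3 of 9. All kept genes had a median of -0.04 in the same comparison.

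**Figure D1:**
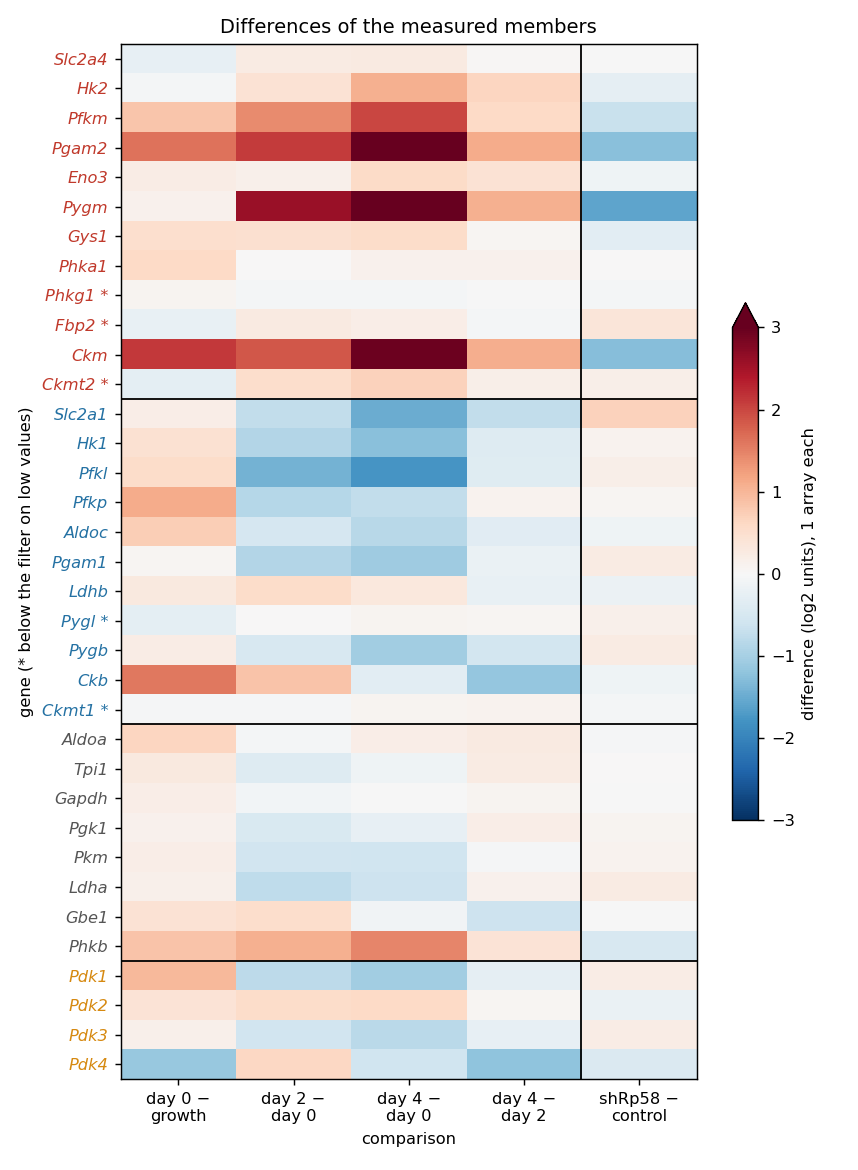
Differences in log2 units between single arrays for the 35 measured genes (rows) in the 5 comparisons (columns), with red for higher and blue for lower in the first-named array and values past 3 in the darkest red. Gene names are coloured by list: muscle isoforms in red, counterparts in blue, forms shared by most cells in grey and pyruvate dehydrogenase kinases in orange, and an asterisk marks the 5 genes below the filter on low values. The day 4 minus day 0 column runs from -1.78 for Pfkl to 3.67 for Pygm, and in the shRp58 column Pygm, Ckm and Pgam2 are lowest.

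The creatine kinases differed in course. Ckm, the muscle form, read 8.82 in growth medium and then 10.94, 12.80 and 13.88 at days 0, 2 and 4. Each later array was higher, day 0 by 4.37-fold over growth medium and day 4 by 33.5-fold. Ckb, the brain-type form found in many tissues, read 11.20, 12.78, 13.63 and 12.46 on the same arrays. Ckb therefore stood 2.99-fold above growth medium at day 0, was highest at day 2, and by day 4 stood 2.25-fold below day 2. From day 2 to day 4 the 2 genes parted by 2.25 log2 units, Ckm being 1.08 higher and Ckb 1.17 lower at day 4. Ckm read 11.86 in the control line and 10.59 in the shRp58 line, -1.27 apart, while Ckb read 11.78 and 11.66. The mitochondrial forms Ckmt1 and Ckmt2 stayed below the filter on every array. Ckmt2, the sarcomeric mitochondrial form, ran from 5.60 at day 0 to 6.28 at day 4. Ckm had a further, dimmer probe set that did not follow the first: over the time course it lay between 8.49 and 8.75, and it differed by 0.25 from day 0 to day 4 and by 0.11 between the stable lines. With the mean of both probe sets, Ckm fell short of 2-fold with shRp58 (-0.58), from day 0 to day 2 (0.92) and from day 2 to day 4 (0.67).

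Glycogen phosphorylase showed the widest parting of isoforms. Pygm, the muscle phosphorylase whose loss causes McArdle disease, read 8.49 in growth medium and 8.63, 11.22 and 12.29 at days 0, 2 and 4. Unlike Ckm, it was nearly level between growth medium and day 0, and was then 6.06-fold higher at day 2 and 12.7-fold higher at day 4 than at day 0. Pygb, the brain form, read 11.13, 11.35, 10.85 and 10.31, and was 2.05-fold lower at day 4 than at day 0. The liver form Pygl lay between 5.11 and 5.39 on these arrays, below the filter. The differences of Pygm and Pygb from day 0 to day 4 were 4.70 log2 units apart, the most of the 9 pairs of kept isoforms. Between the stable lines Pygm read 9.55 with the control vector and 7.96 with shRp58, which at -1.59 was the lowest difference among the 30 kept genes.

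Phosphoglycerate mutase, which moves the phosphate of phosphoglycerate late in glycolysis, parted in the same direction. Pgam2, the muscle form, read 7.86 in growth medium and 9.50, 11.60 and 12.70 at days 0, 2 and 4. It was 3.11-fold higher at day 0 than the growth medium value, which was dim, lying below the filter value and the median of its arrays. Day 4 stood 9.24-fold above day 0. Pgam1, the form of most other tissues, read 13.63, 13.69, 12.82 and 12.64, and was 2.08-fold lower at day 4 than at day 0. Between the stable lines Pgam2 differed by -1.24, from 9.75 to 8.51 with shRp58, and Pgam1 read 12.68 and 12.93.

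At the committing step, phosphofructokinase, the isoforms parted by 3.78 (Pfkm and Pfkl) and 2.75 (Pfkm and Pfkp) log2 units from day 0 to day 4, and for the hexokinases and transporters by 2.32 and 1.76. Pfkm, the muscle phosphofructokinase, read 10.72 in growth medium and 11.55, 12.96 and 13.56 at days 0, 2 and 4, and was 4.00-fold higher at day 4 than at day 0. Pfkl, the liver form, read 12.41, 12.95, 11.53 and 11.17, and was 3.44-fold lower at day 4 than at day 0. Pfkp, the platelet form, had another course: at 10.92, 12.03, 11.17 and 11.29 it stood 2.17-fold above growth medium at day 0 and was 0.74 lower at day 4 than at day 0. The call of Pfkp at day 0 was lost after quantile and loess normalization, at 0.93 to 0.96. Hk2, the insulin-regulated hexokinase of muscle, read 11.12, 11.06, 11.49 and 12.13, and was 2.09-fold higher at day 4 than at day 0. Hk1, the housekeeping hexokinase, read 12.52, 12.96, 12.09 and 11.71, and was 2.38-fold lower. Among transporters, Slc2a1 read 11.91, 12.11, 11.37 and 10.63, a 2.79-fold difference between day 0 and day 4. Slc2a4, the insulin-responsive transporter of muscle, lay between 8.96 and 9.24 throughout, and its differences up to day 2 turned sign under other settings. The parting of the transporters was thus carried by Slc2a1.

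**Figure D2:**
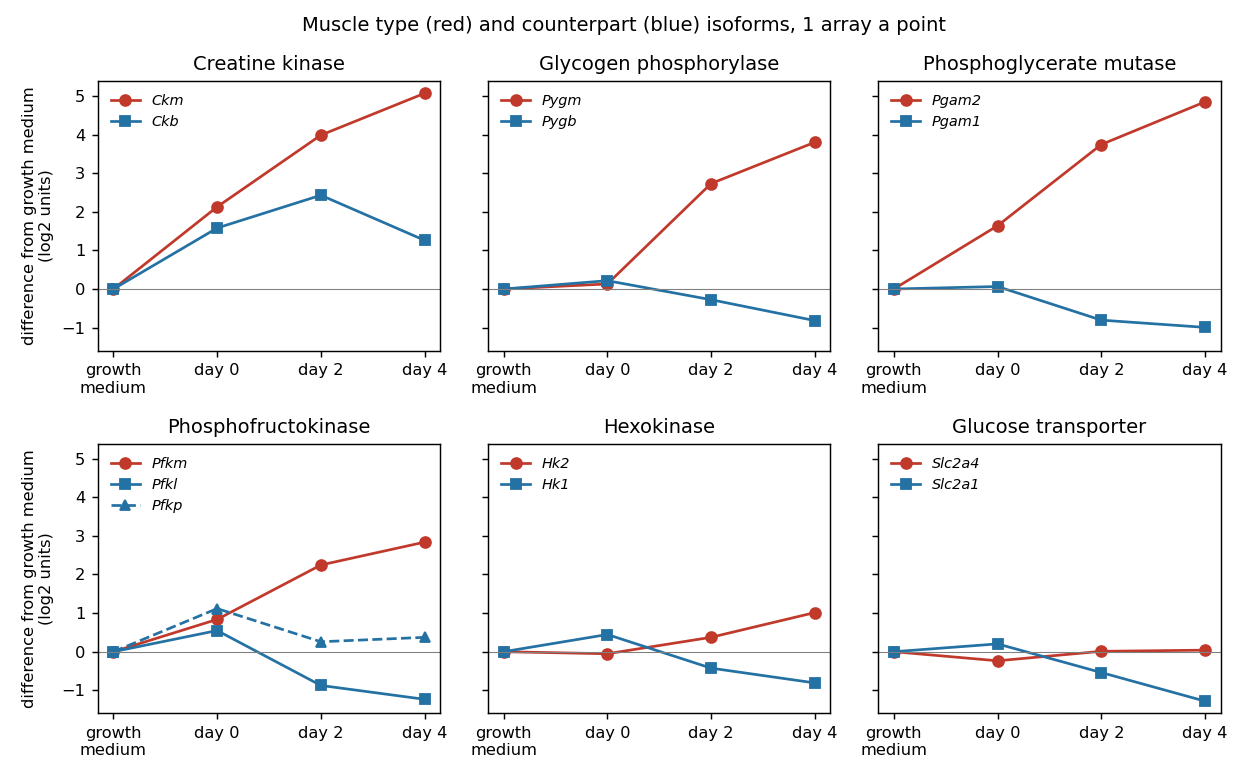
Log2 difference from growth medium (vertical axis) on the 4 time-course arrays (horizontal axis) for 6 enzyme or transporter families, with the muscle isoform in red and its counterparts in blue; each point is 1 array. At day 4 Ckm stands 5.07 and Pgam2 4.85 above growth medium and Pfkl 1.23 below it, while Ckb is highest at day 2.

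Of 12 isoform pairs listed, 9 had both genes kept. In the pairs with Aldoc and Ldhb the muscle place was taken by Aldoa and Ldha, listed here otherwise as forms shared by most cells. From day 0 to day 4 Aldoa differed by 0.20 and Aldoc by -0.83, so that pair was carried mostly by Aldoc. From day 0 to day 4 the difference of the muscle isoform lay above that of its counterpart in 8 of the 9 pairs, with a median of 2.75 log2 units between them. From growth medium to day 0 the same held for 3 of 9 pairs, with a median of -0.09. The exception at day 4 was lactate dehydrogenase. Ldha, the subunit that predominates in fast muscle, read 13.89 in growth medium and 14.05, 13.28 and 13.42 at days 0, 2 and 4. Ldhb, the heart-type subunit, read 10.02, 10.32, 10.86 and 10.63, so that Ldha was 0.63 lower and Ldhb 0.31 higher at day 4 than at day 0. Neither gene was called in any comparison, and all 4 probe sets of Ldhb lay above 0 from day 0 to day 4. The pairs share genes, since Pfkm stands in 2 of them, and they are not independent.

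Of the 8 kept genes listed as shared by most cells, 1 was called higher from day 0 to day 4 (Phkb) and 0 lower. The shares of all kept genes were 3.83% and 5.66%. From day 0 to day 2, 6 of the 8 lay below 0, while 48.0% of all kept genes lay above 0. Their median was -0.24 there, against -0.01 for all kept genes. Aldoa, the aldolase of muscle and most other cells, read 13.40 in growth medium and 14.05, 13.98 and 14.25 at days 0, 2 and 4. Aldoc, the brain aldolase, read 8.15, 8.89, 8.39 and 8.06, of which the first and the last lay below the median of the time-course arrays. Gapdh lay between 14.43 and 14.64, Tpi1 between 13.51 and 13.90, Pgk1 between 13.86 and 14.30, Pkm between 13.45 and 14.04, and none of these 4 was called in any comparison. They stood close to the top of the scale, as the highest value of any probe set on these arrays was 15.09. By its other probe sets Tpi1 was at -0.56 and -0.61 from day 0 to day 2, against -0.39 by the one used. Pgk1 was at -0.59 and -0.86 by its other probe sets, against -0.45. Gapdh was read by array control probe sets alone. Its 3' minus 5' control difference, a sign of RNA integrity, ran from -0.01 to 0.21 on the time-course arrays, highest in growth medium, and its part in the differences from growth medium was not tested. Eno3, the muscle enolase, read 13.68, 13.91, 14.07 and 14.49, a difference of 0.58 between day 0 and day 4.

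Among the other glycogen genes, 1 regulatory subunit was called. Phkb, the beta subunit of phosphorylase kinase, read 9.01 in growth medium and 9.86, 10.92 and 11.33 at days 0, 2 and 4, and was 2.77-fold higher at day 4 than at day 0. Phka1, the muscle alpha subunit, lay between 9.20 and 9.92 with no call, and the muscle catalytic subunit Phkg1 lay between 5.24 and 5.33, below the filter. Gys1, the muscle glycogen synthase, read 10.37, 10.87, 11.35 and 11.42. Its other, dimmer probe set had another course, at 8.27, 9.34, 9.30 and 10.10. It was 1.07 higher at day 0 than in growth medium, and differed by -0.04 from day 0 to day 2. Gbe1, the glycogen branching enzyme, read 7.91, 8.35, 8.87 and 8.24, highest at day 2 and with no call. The gene of the muscle fructose bisphosphatase, Fbp2, lay between 7.55 and 7.81, below the filter.

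The 4 pyruvate dehydrogenase kinases, which close the entry of pyruvate into the mitochondrial cycle, had different courses. Pdk4, the form raised by fasting and fatty acids, was as deposited the only gene of the 30 that was highest in growth medium, reading 11.37 there and 10.24, 10.85 and 9.63 on the later days. Day 0 stood 2.20-fold below growth medium, and day 4 2.33-fold below day 2. Pdk1, a known target of the hypoxia factor Hif1a, read 9.95, 10.93, 10.14 and 9.88, a peak at day 0, and was 2.07-fold lower at day 4 than at day 0. That call was lost after quantile and loess normalization (-0.92 to -0.94), and 2 of its 4 probe sets differed by less than 0.10 there, at -0.03 and -0.09. Pdk2 read 8.53, 8.93, 9.47 and 9.53, and Pdk3 10.59, 10.73, 10.15 and 9.91, with no call in any comparison.

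**Figure D3:**
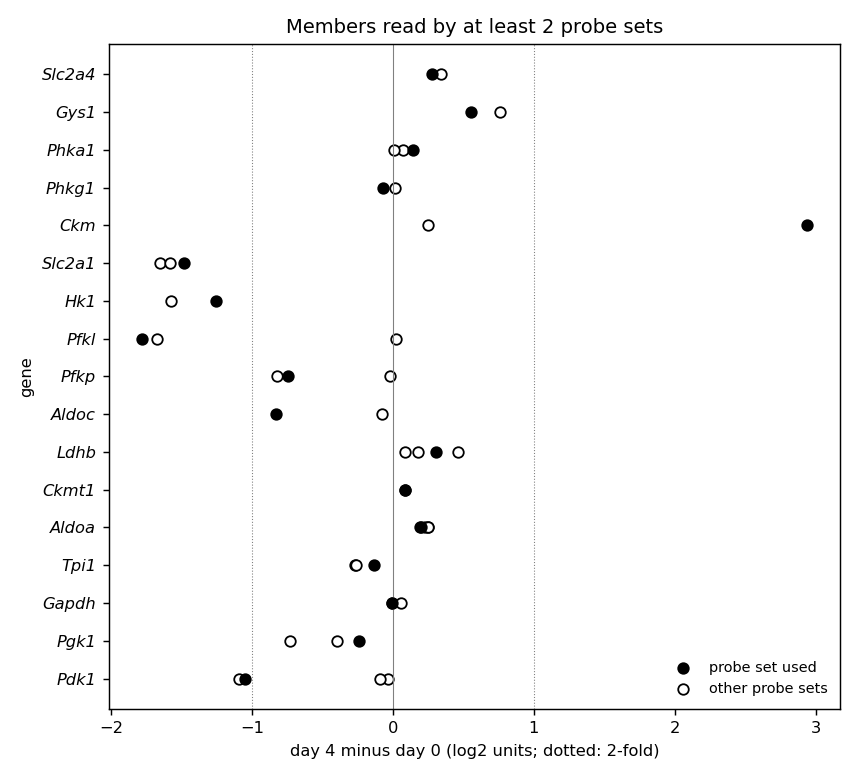
Day 4 minus day 0 in log2 units (horizontal axis) for each probe set of the 17 measured genes with at least 2 (rows), with the probe set used in black and the others in white; dotted lines mark 2-fold. The probe sets of 14 of the 17 genes lay on 1 side of 0, those of Slc2a1 and Hk1 were all past 2-fold, and Ckm, Pfkl and Pdk1 each had at least 1 probe set between -0.09 and 0.25.

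From growth medium to day 0, 4 of 30 were called higher (Pgam2, Ckm, Pfkp and Ckb) and 1 lower (Pdk4), against 2.91% and 0.317% of all kept genes. At 1.5-fold these counts were 10 and 1, against 10.9% and 2.94%. With the probe set of the widest time-course range, 6 were called higher at 2-fold, Gys1 and Pdk1 being added. The share of all kept genes was not computed for that choice. All kept genes had a median of 0.10 in this comparison, which became -0.03 after quantile normalization and 0.00 after loess. The 30 genes had a median of 0.35 as deposited, a value that depends on the scaling. The median of the muscle isoforms was 0.50 as deposited and 0.29 after quantile normalization of the 6 arrays. That of the counterparts was 0.45 and 0.26. Of the 25 uncalled differences in this comparison, 16 kept their sign in all 6 other settings of scaling and probe set. Over all kept genes, the share of higher calls among all calls was 90.2% as deposited and 85.4% after loess. It was 76.7% after quantile normalization of the 6 arrays and 79.5% after quantile normalization within each set of arrays.

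From day 0 to day 2, 5 of 30 were called higher (Pfkm, Pgam2, Pygm, Ckm and Phkb) and 1 lower (Pfkl), against 2.67% and 2.96% of all kept genes. With the mean of each gene's probe sets, Pfkl fell short of 2-fold (-0.99) and Hk1 was the 1 called lower (-1.28). At 1.5-fold there were 7 each way, against 6.68% and 8.34%. The 7 lower were Slc2a1, Hk1, Pfkl, Pfkp, Pgam1, Ldha and Pdk1. The medians of the muscle isoforms and the counterparts were 0.49 and -0.74, with all kept genes at -0.01.

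From day 0 to day 4, 6 of 30 were called higher (Hk2, Pfkm, Pgam2, Pygm, Ckm and Phkb) and 6 lower (Slc2a1, Hk1, Pfkl, Pgam1, Pygb and Pdk1), against 3.83% and 5.66% of all kept genes. After loess normalization the split was 6 higher and 3 lower, since Pgam1, Pygb and Pdk1 fell short of 2-fold, at -0.94, -0.91 and -0.94. At 1.5-fold there were 7 higher and 12 lower, against 8.36% and 14.0%. From day 2 to day 4, 3 of 30 were called higher (Pgam2, Pygm and Ckm) and 2 lower (Ckb and Pdk4), against 0.808% and 0.808%, and at 1.5-fold 5 and 4, against 2.62% and 4.19%.

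Between the stable lines, shRp58 against control vector asks which genes differed when Rp58 was targeted, and 1 array each cannot separate the hairpin from other differences between the lines. Of the 30 genes, 3 were called lower with shRp58 (Pgam2, Pygm and Ckm) and 0 higher, against 0.619% and 0.0529% of all kept genes. At 1.5-fold 4 were lower, with Pfkm added, and 1 higher, against 2.25% and 1.43%. Pfkm read 11.17 in the control line and 10.49 in the shRp58 line. The gene that was higher was Slc2a1, reading 10.05 in the control line and 10.74 in the shRp58 line. Its difference of 0.69 was 0.46 and 0.74 by its other probe sets. The muscle isoforms had a median of -0.31 and the counterparts of 0.10, with all kept genes at -0.01. Muscle markers outside these pathways lay lower too: all 8 on the list were below 0, with a median of -0.74 and 2 called, Tnnt3 (-1.34) and Mymk (-1.04), and their part in the enzyme differences was not tested. Phkb read 9.09 and 8.62, Pdk4 8.80 and 8.36, and Gys1 9.92 and 9.61, none of them called. Gapdh, Tpi1 and Aldoa differed by at most 0.03 in size, and the sign of each turned under other settings.

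Set beside the time course, with which the stable lines share no array, these differences mostly ran against those from day 0 to days 2 and 4. Of 12 genes that were higher at both day 2 and day 4 than at day 0, 11 were lower with shRp58. Of 14 that were lower at both days, 12 were higher with shRp58. These counts go by sign alone, and the same counts were not made over all kept genes. They therefore do not set these genes apart from others. Among the counted genes, Slc2a4 (-0.01), Tpi1 (0.002), Phka1 (0.007) and Gapdh (-0.02) lay near 0 with shRp58 and turned sign there under other settings. Slc2a4 and Gys1 turned sign from day 0 to day 2 under other settings. Gapdh did so from day 0 to day 2 and from day 0 to day 4. Across the 30 genes the shRp58 difference and day 4 minus day 0 had a Pearson r of -0.93 and a Spearman rho of -0.86, and across all 13242 kept genes r was -0.64 and rho -0.39. Without Pgam2, Pygm and Ckm, r over the other 27 genes was -0.81. Against day 2 minus day 0 the relation was about as strong, with r at -0.92 for the 30 genes, -0.82 for the 27 and -0.67 for all kept genes. By r it was weaker for the remaining steps. Against day 0 minus growth medium r was -0.36 for the 30 genes, -0.04 for the 27 and -0.51 for all kept genes. Over all kept genes rho was -0.47 there, larger in size than for day 4 minus day 0. Against day 4 minus day 2 r was -0.66, -0.30 and -0.24. The genes were measured on the same arrays and are not independent, so these values are a description. Pdk4 lay off this relation, being lower both at day 4 (-0.61) and with shRp58 (-0.44). The same held for Aldoc (-0.83 and -0.12), Ckb (-0.32 and -0.12), Gbe1 (-0.11 and -0.02) and Gapdh (-0.01 and -0.02). Phka1 was higher in both (0.14 and 0.01).

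**Figure D4:**
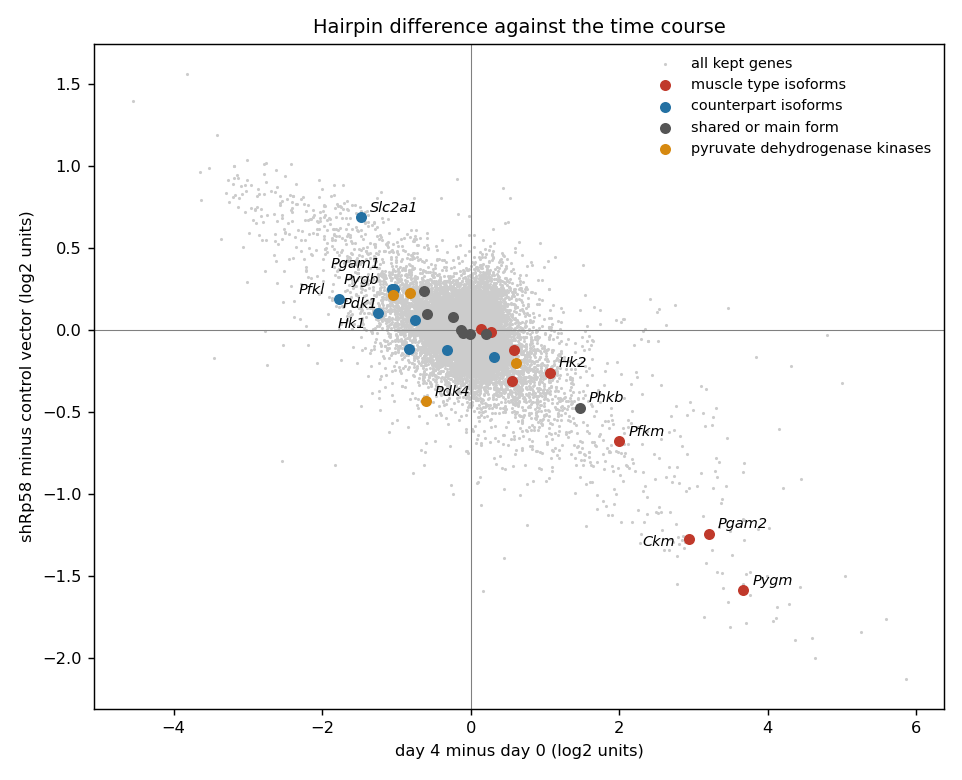
Log2 difference of shRp58 from control vector (vertical axis) against day 4 minus day 0 (horizontal axis) for all 13242 kept genes in light grey and the 30 kept genes of these pathways in colours by list; each axis compares single arrays. Pygm, Ckm and Pgam2 lie at the lower right, Slc2a1 at the upper left, and Pdk4 below 0 on both axes.

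On 1 array each, and from sets of arrays on different scales, the control line read apart from parental day 0 cells for some of these genes. After quantile normalization of all arrays together, which bridges the scales only in part, Pygm stood 1.93, Ckm 1.84 and Pgam2 1.26 higher in the control line than in parental day 0 cells, and Slc2a1 1.09 lower. In the shRp58 line the same genes stood 0.44, 0.67 and 0.11 higher and 0.39 lower than in parental day 0 cells. These 4 genes were chosen for their difference between the lines. Of all 30 genes, 17 lay nearer to parental day 0 cells in the shRp58 line and 13 in the control line, among the latter Pdk4 (-0.38 in the control line and -0.75 in the shRp58 line). The same count was not made over all kept genes. No array here separates transfection, selection, the hairpin and the set of arrays.

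Sequence upstream of the start is shown for the genes called with shRp58 (Ckm, Pgam2 and Pygm), for Ckb, whose course differed from that of Ckm, and for Slc2a1, whose difference with shRp58 was the highest of the 30. Each window runs from 250 bases before to 50 after the RefSeq start on GRCm38.p6, written 5′ to 3′ on the gene's strand. Capitals mark matches, on either strand, to the E-box CANNTG that myogenic helix-loop-helix factors bind, to its form CATCTG, which lies within the sequence Rp58 is known to bind, to ACGTG, the core of the hypoxia response element, to TATAAA and to the Mef2 motif. CATCTG is itself a form of CANNTG, and TATAAA can lie within a Mef2 match, as it does in Ckb. The windows are Ckm at chr7:19410844-19411143 (plus strand), Pgam2 at chr11:5803747-5804046 (minus), Pygm at chr19:6384158-6384457 (plus), Ckb at chr12:111672289-111672588 (minus) and Slc2a1 at chr4:119108495-119108794 (plus).
Ckm: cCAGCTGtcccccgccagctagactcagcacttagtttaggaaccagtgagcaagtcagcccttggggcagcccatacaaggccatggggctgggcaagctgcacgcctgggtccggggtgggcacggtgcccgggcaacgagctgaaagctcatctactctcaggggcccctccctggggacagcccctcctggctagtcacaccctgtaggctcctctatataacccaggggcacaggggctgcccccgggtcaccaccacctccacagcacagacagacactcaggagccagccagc
Pgam2: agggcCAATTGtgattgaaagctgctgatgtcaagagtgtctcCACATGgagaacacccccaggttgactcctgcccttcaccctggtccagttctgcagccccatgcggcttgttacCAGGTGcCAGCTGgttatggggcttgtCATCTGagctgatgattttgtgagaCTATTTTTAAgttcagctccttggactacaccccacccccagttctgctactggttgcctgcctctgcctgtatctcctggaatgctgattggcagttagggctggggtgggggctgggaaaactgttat
Pygm: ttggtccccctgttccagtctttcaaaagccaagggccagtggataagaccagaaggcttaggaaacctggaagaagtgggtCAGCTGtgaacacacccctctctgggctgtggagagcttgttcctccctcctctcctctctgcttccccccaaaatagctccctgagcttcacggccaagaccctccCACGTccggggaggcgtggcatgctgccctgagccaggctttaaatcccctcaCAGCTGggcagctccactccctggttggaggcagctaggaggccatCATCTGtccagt
Ckb: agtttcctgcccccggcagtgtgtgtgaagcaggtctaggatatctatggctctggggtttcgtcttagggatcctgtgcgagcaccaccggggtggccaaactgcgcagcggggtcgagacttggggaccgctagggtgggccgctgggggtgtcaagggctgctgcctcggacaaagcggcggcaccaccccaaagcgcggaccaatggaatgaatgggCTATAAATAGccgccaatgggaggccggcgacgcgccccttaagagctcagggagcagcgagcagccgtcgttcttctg
Slc2a1: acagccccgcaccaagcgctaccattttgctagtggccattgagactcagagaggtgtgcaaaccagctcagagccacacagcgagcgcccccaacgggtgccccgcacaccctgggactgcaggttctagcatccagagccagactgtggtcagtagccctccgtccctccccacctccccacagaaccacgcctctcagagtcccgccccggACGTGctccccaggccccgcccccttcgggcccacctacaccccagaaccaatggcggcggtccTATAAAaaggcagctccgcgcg

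The window of Ckm held 1 E-box match, CAGCTG, at its far end, and no match to the other motifs. That of Pgam2 held 5 E-box matches, 1 of them CATCTG at -105 to -100 from the start, and a Mef2 match at -80 to -71. That of Pygm held 3, with CATCTG after the start at 39 to 44, and 1 ACGTG match on the other strand. Ckb held no E-box match but a Mef2 match at -29 to -20, and Slc2a1 held ACGTG at -36 to -32 and TATAAA after the start. RefSeq windows were found for 34 of the 35 measured genes (46 windows), Slc2a4 being the other. Of these windows 69.6% held CANNTG, against 72.3% of all 32851 windows, 10.9% held CATCTG against 17.2%, 41.3% ACGTG against 19.6%, 6.52% TATAAA against 13.6%, and 4.35% the Mef2 motif against 3.19%. By list, CANNTG lay in 12 of 14 windows of muscle isoforms and 5 of 14 of counterparts, and ACGTG in 5 and 6 of them. For the forms shared by most cells, CANNTG lay in 10 of 12 windows and ACGTG in 6. For the pyruvate dehydrogenase kinases, CANNTG lay in 5 of 6 windows and ACGTG in 2. A match is a run of letters and not a bound site, and its absence from a window says nothing about a factor.

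Other genes of the same pathways were read from a further list. Of 45 such genes on a fixed list, 40 were measured and 34 kept. From day 0 to day 4, 2 of the 34 were called higher and 2 lower, against 3.83% and 5.66% of all kept genes, with a median of 0.21. Those higher were Gyg, the glycogenin that primes glycogen (1.16), and Ampd1, the muscle AMP deaminase (1.40). Those lower were Pgm2, a phosphomutase (-1.60), and Pfkfb4, which sets the activator of phosphofructokinase (-1.31). From growth medium to day 0, 4 were called higher and 0 lower, against 2.91% and 0.317%. Of the 34, 27 lay above 0, against 61.2% of all kept genes as deposited. The 4 called were the neuronal enolase Eno2 (1.76), the pyruvate dehydrogenase phosphatase Pdp1 (1.20), and the creatine synthesis genes Gamt (1.13) and Gatm (1.01). They are named after their values were seen. With shRp58 0 of 34 were called at 2-fold in either direction.

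Hypoxia-responsive genes outside the 37 and regulators of these enzymes were read for comparison. Of 15 kept hypoxia-responsive genes, 1 was called higher from growth medium to day 0, against 2.91% of all kept genes. It was Bnip3 (1.14, named after its value was seen). The list had a median of 0.48, against 0.10 for all kept genes. From day 0 to day 4, 1 was called higher, the prolyl hydroxylase Egln3 (1.53), and 2 lower, Ddit4 (-1.80) and Ankrd37 (-1.43), against 3.83% and 5.66%. With shRp58 0 were called, against 0.0529% higher and 0.619% lower. Hif1a itself, also named after its values were seen, was 0.50 higher at day 0 than in growth medium and 0.36 lower at day 4 than at day 0. Of 17 kept regulators, 3 were called higher from day 0 to day 4, against 3.83% of all kept genes. They were the muscle transcription factors Mef2c (3.67) and Myog (1.14) and Prkag3 (3.35), a muscle subunit of AMP-activated kinase. With shRp58, 2 of the 17 were called lower, Prkag3 (-1.20) and Mef2c (-1.16), against 0.619%. The coactivator Ppargc1a was 1.02 higher at day 2 than at day 0, from 7.39 to 8.41, a start below the median of its arrays.

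The labelled cell type was checked against its markers. All 8 skeletal muscle markers were kept, and Myog, a defining factor of differentiating myoblasts, read 11.06 in growth medium and 14.48 at day 4. Of the 8, 5 were called higher from day 0 to day 4 and 1 lower, against 3.83% and 5.66% of all kept genes. The lower one was Myf5, the early myogenic factor (-1.29). Of 18 markers of adipocytes, osteoblasts, leukocytes, endothelium and liver, 16 were measured, 6 kept and 0 called in any of the 5 comparisons. Lack of a call does not show that a marker was absent. Cd3e (9.75 to 10.29), Kdr (9.44 to 9.46) and Ttr (9.21 to 9.51) lay above the median of the time-course arrays throughout. Fabp4 and Sp7 lay below it throughout, and Alpl on 1 array.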

How the data were processed

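C2C12 cells were measured on 6 Affymetrix mouse whole-genome arrays, 1 array a group, with groups taken from the sample titles. The authors hybridised 10 ug of cRNA and quantified it by RMA, per the series' design text, and the deposited values are log2 intensities, as their range shows. Neither the RMA software nor whether the arrays were normalized together is given in the sources used here. Of 45101 probe sets, 34958 were paired with 1 gene in the platform annotation, 932 with several and 9211 with none, and only those with 1 gene were named. A gene was kept where its highest value reached 7.95. A value is called dim where it lies below the median of its set of arrays. Differences were computed across all genes with pandas 2.3.3 and counted at 2-fold. With 1 array a group no test was run. Counting was tested on simulated data. Alternatives were the mean of a gene's probe sets, the probe set with the widest time-course range, median centring, quantile normalization of all arrays or within each set, cyclic loess (limma 3.58.1, R 4.3.3), no filter, a filter within the set compared, and 1.5-fold. Sequences are from RefSeq (GRCm38.p6). The genes, lists, motifs and naming rule (any of the 37 genes, and list genes called at day 2 or day 4 against day 0 or with shRp58) were chosen with earlier results of these data known, as were the genes whose sequence is shown. Listed older symbols were read through the RefSeq table (Ero1l as Ero1a). Some listed genes are not reported here.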

Additional observations from a re-analysis of the deposited data

How the results depend on the processing

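Precision is limited by the number of arrays, as 1 array a group gives no error. No paired analysis was possible because no group has a replicate number in the labels, and leaving out a replicate was not possible either. Of 90 counts of called genes under alternatives, 82 stayed within 1.5 times the count as deposited. At 1.5-fold the counts were 10 higher from growth medium to day 0, 7 lower from day 0 to day 2, 12 lower from day 0 to day 4, 5 higher and 4 lower from day 2 to day 4, and 1 higher with shRp58. With the probe set of the widest range, 3 were lower from day 0 to day 2, Hk1 and Pfkp being added to Pfkl, and after cyclic loess 3 were lower from day 0 to day 4. The count of 8 of 9 isoform pairs at day 4 was 8 in all 6 other settings. All 31 called differences kept their sign in the 6 settings of scaling and probe set. As the settings rework the same arrays, this is a weak check at that size and says nothing about replication. In these settings 16 values of called differences fell short of 2-fold. With the probe set of the widest range, Pdk1 was at -0.09 from day 0 to day 4. Of 119 uncalled differences 21 turned sign, the widest of them 0.49 as deposited. With the mean of its probe sets, Ckm fell short of 2-fold from day 0 to day 2 (0.92), from day 2 to day 4 (0.67) and with shRp58 (-0.58), its dimmer probe set being nearly level.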
